A study of Mus musculus with 27 samples.

Results

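Polyadenylated RNA of the nucleoplasm was compared with that of the cytoplasm in primary mouse cortical neurons, with 3 libraries of each fraction. These 6 libraries, of 27 in the series, were taken by their column names in the deposited table of read counts. The neurons (mCtx) were grown on a poly-L-lysine coat for 5 days, and no strain, genotype or treatment is given in the labels. Their titles carry the tag E15D5, which the labels do not explain, and an age is not otherwise given. The other cell types used here for comparison were a neural progenitor line made in the laboratory and given 10 ng/ml of EGF and FGF each day (mNPC), and the E14 embryonic stem cell line kept with LIF (mESC). In all cell types the RNA was split into nucleoplasm, cytoplasm and chromatin, and RNA above 200 nt was selected before the poly(A) step. A gene's level is therefore its share of the RNA of a fraction and gives no amount per cell, and the purity of the fractions was not tested. Cytoplasmic RNA was taken up in Trizol LE and nuclear RNA in Trizol, per the labels, so reagent and fraction cannot be told apart.

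The nucleoplasm is the soluble part of the nucleus, through which finished mRNAs pass on their way to the nuclear pores, and the cytoplasm holds most translating ribosomes. The outer nuclear membrane is continuous with the endoplasmic reticulum (ER), where mRNAs of secreted and membrane proteins are translated. Neurons express very large motor, scaffold and adhesion proteins, whose mRNAs are among the longest of the cell.

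Library totals were 17451945, 15995030 and 23909738 counts in nucleoplasm and 15607890, 22298946 and 24537526 counts in cytoplasm. The label was checked with marker lists, in which all 18 pan-neuronal markers passed the filter on low counts. Their levels in CPM (counts scaled by library size and the TMM method) summed to between 15431 and 17130 in nucleoplasm and between 14228 and 15369 in cytoplasm. Progenitor markers, with all 16 above the filter, summed to 1760 to 1932 CPM in nucleoplasm and 1488 to 1935 CPM in cytoplasm, and 13 of 14 astrocyte markers to 762 to 841 CPM and 791 to 799 CPM in the same order. Sums were 131 to 132 CPM in nucleoplasm and 281 to 335 CPM in cytoplasm for 11 of 13 oligodendrocyte lineage markers, and 65.3 to 76.9 CPM in nucleoplasm and 98.6 to 122 CPM in cytoplasm for 13 of 15 microglia markers. Inhibitory neuron markers (16 of 17) summed to 498 to 618 CPM in nucleoplasm and 716 to 795 CPM in cytoplasm. Fibroblast and mural markers (10 of 12) summed to 42.7 to 43.5 CPM in nucleoplasm and 23.9 to 28.8 CPM in cytoplasm, and endothelial markers (8 of 9) stayed under 5 CPM in either fraction. RNA of several cell types beside neurons was thus present, and in such bulk fractions fewer cells of a type and less RNA per cell cannot be told apart.

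In mCtx nucleoplasm 2134 genes were higher and 1744 lower than in cytoplasm, of 18226 tested. A gene was called at an adjusted p under 0.05 (edgeR quasi-likelihood test, Benjamini-Hochberg over all genes tested) and a log2 fold change of at least 1 in size. The background against which each group of genes is read is thus 21.3% called, with 11.7% higher and 9.57% lower, and the median log2 fold change of all genes was 0.0. By the same rule 25.0% were called in mNPC (16.4% higher, 8.56% lower) and 36.5% in mESC (27.5% higher, 8.95% lower). In 5597 genes (30.7%) all 3 nucleoplasm libraries lay above all 3 cytoplasm libraries, and in 5810 (31.9%) all 3 lay below. Log2 fold changes are nucleoplasm over cytoplasm throughout, with SE.

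Cell type markers themselves were called on both sides. Among 18 pan-neuronal markers 3 were higher and 1 lower (median 0.12), with the neurofilament gene Nefm at 1.61 and the small surface protein gene Thy1 at -1.06. The neuronal tubulin Tubb3 averaged 3648 ± 342 CPM in nucleoplasm and 2644 ± 284 CPM in cytoplasm and was not called. Of 16 progenitor markers 5 were higher, the proliferation genes Mki67 (3.76) and Top2a (1.61), the intermediate filament Nes (2.06), the receptor phosphatase Ptprz1 (2.03) and the receptor Notch1 (1.57). Another 5 were lower, among them the transcription factor Sox2 (-1.46) and the fatty acid binding protein Fabp7 (-1.40). Of 13 microglia markers 5 were lower (3 without mCtx cytoplasm 3 or mCtx nucleoplasm 1) and none higher, with Tyrobp, a small signalling adaptor, at -3.02. Inhibitory neuron markers had 6 of 16 lower and none higher, and fibroblast and mural markers 4 of 10 higher and none lower. Called pan-neuronal and progenitor markers thus lay on both sides, and those of microglia, inhibitory neurons, fibroblasts and mural cells on 1 side. The share of each type in a fraction was not tested.

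The mRNAs of the large neuronal motors had some of the highest nucleoplasm ratios. Dync1h1, the heavy chain of cytoplasmic dynein (mm10, chr12:110601452-110666945, + strand), had 2510, 2408 and 2666 CPM in nucleoplasm and 194, 222 and 284 CPM in cytoplasm. Kif1a, a kinesin that carries synaptic vesicle precursors, had 3123, 2963 and 3422 CPM in nucleoplasm and 255, 314 and 377 CPM in cytoplasm. In both genes the nucleoplasm libraries lay close together and far above the cytoplasm libraries, 10.8-fold on average for Dync1h1. The log2 fold changes were 3.44 ± 0.26 (adjusted p = 1.3e-10) for Dync1h1 and 3.33 ± 0.46 (adjusted p = 1.6e-06) for Kif1a in the edgeR test. Kif5c, a kinesin-1 heavy chain, averaged 1938 ± 94.8 CPM in nucleoplasm and 194 ± 31.6 CPM in the cytoplasm libraries (SD, n = 3 each, as in all such values), and Kif1b, a kinesin of the same family as Kif1a, 1796 ± 94.6 CPM and 192 ± 32.2 CPM in the same order. Small dynein subunits lay on the other side. Dynlrb1, a light chain, averaged 144 ± 27.9 CPM in nucleoplasm and 376 ± 26.2 CPM in cytoplasm, which gives a log2 fold change of -1.38. Of 40 kinesin and dynein genes tested, 10 were higher and 3 lower, with a median of 0.46. The 3 lower ones, Dynlrb1, Dynll1 and Dynlt3, encode dynein light chains.

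The cytoskeletal list was called on both sides, with 7 of 54 genes higher, 8 lower and a median of -0.08. These shares are not far from the 11.7% higher and 9.57% lower over all genes. Map1b, a large microtubule-associated protein of growing axons, had 4483, 4067 and 4473 CPM in nucleoplasm and 783, 687 and 1041 CPM in cytoplasm, with no overlap (log2 fold change 2.37 ± 0.25, edgeR adjusted p = 2.9e-08). Map1a (1.84), the neurofilament Nefm (1.61) and Map2 (1.01) were also higher. Tmsb4x, thymosin beta 4, a small protein that binds actin monomers (chrX:167207093-167209315, - strand), had 690, 696 and 664 CPM in nucleoplasm and 3742, 3873 and 2984 CPM in cytoplasm. Its log2 fold change was -2.37 ± 0.46 (edgeR adjusted p = 0.00013), and its relative Tmsb10 had -2.03 ± 0.24, with 834 ± 81.2 CPM in nucleoplasm and 3416 ± 192 CPM in cytoplasm. The profilins Pfn2 and Pfn1, which also bind actin monomers, had -1.41 and -1.26. Tubulins, the most abundant members, had smaller differences. Tuba1a averaged 14858 ± 875 CPM in nucleoplasm and 9088 ± 784 CPM in cytoplasm, and its log2 fold change of 0.71 was below the minimum of 1. Tubb2b was called at 1.02 ± 0.15, a value at the minimum, and fell below it without mCtx cytoplasm 1 or mCtx nucleoplasm 1 or 3 (0.96 to 1.04 over the 6 fits that leave out an mCtx library).

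**Figure D1:**
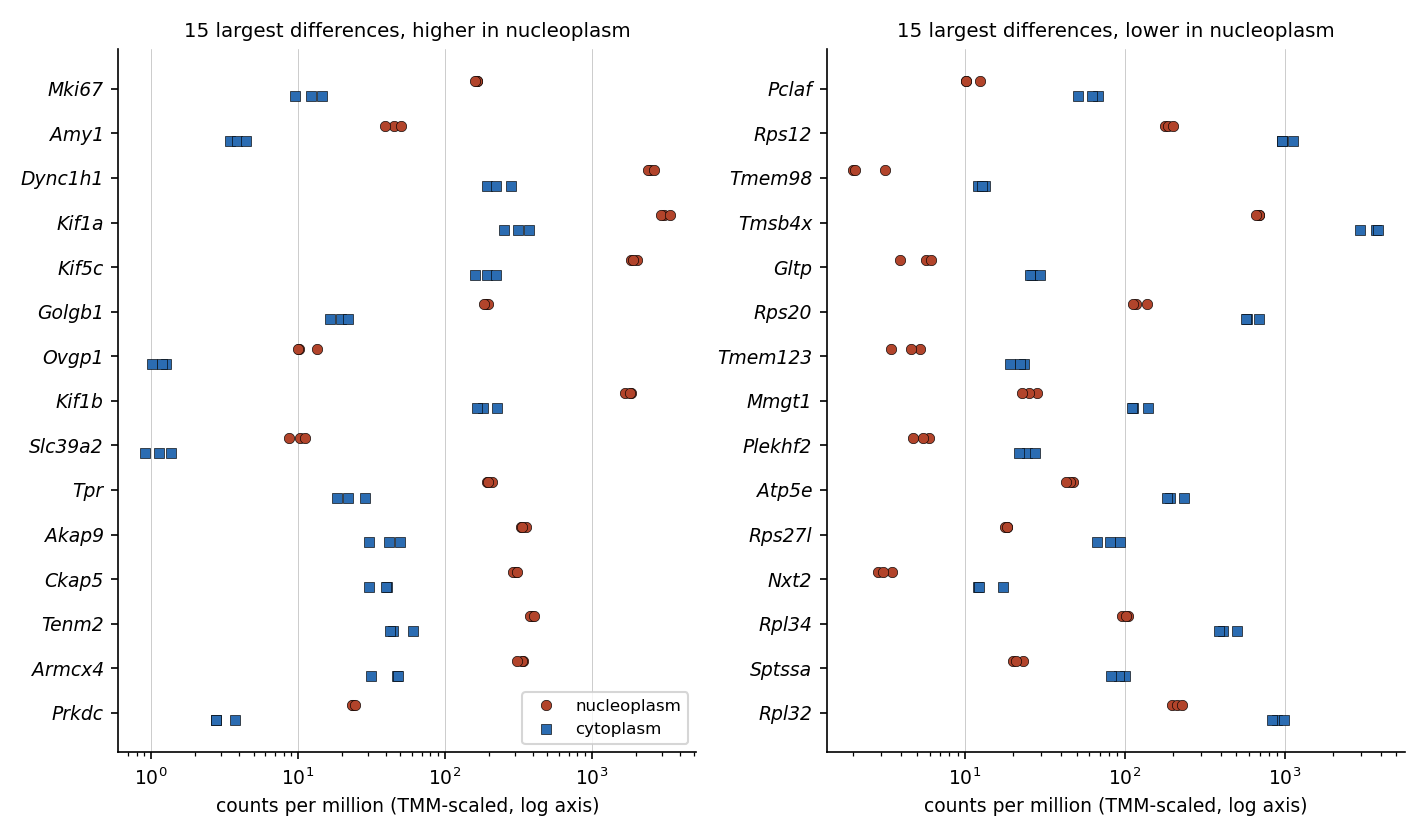
Levels in CPM (TMM-scaled, log axis) in each of 3 nucleoplasm (circles, upper in each row) and 3 cytoplasm (squares) mCtx libraries for the 15 called genes with the largest difference in each direction among those that average 10 CPM or more in either fraction and whose groups do not overlap. The highest levels are those of the motors Kif1a, Dync1h1, Kif5c and Kif1b at left and of Tmsb4x at right.

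The plot of single genes shows the 15 genes with the largest nucleoplasm ratios among called genes whose groups do not overlap and average 10 CPM or more in either fraction, and most of them encode very large proteins. Mki67, the Ki-67 protein that coats mitotic chromosomes (chr7:135689788-135716379, - strand), led these with 165, 165 and 162 CPM in nucleoplasm and 14.6, 9.61 and 12.3 CPM in cytoplasm (log2 fold change 3.76 ± 0.20, edgeR adjusted p = 1.1e-12). Golgb1 (3.30), a giant protein of Golgi membranes, Tpr (3.12), of the nuclear pore basket, Akap9 (3.08), a kinase anchor at centrosome and Golgi, and Ckap5 (3.03), a microtubule polymerase, each encode over 2000 residues. So do Tenm2 (3.00), an adhesion protein, Armcx4 (2.96) and Prkdc (2.96), the catalytic subunit of DNA-dependent protein kinase. Prkdc had 1.33 on the log2(TPM + 1) scale of the authors' second table. The Golgb1 span overlaps 4930565N06Rik on the opposite strand.

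Of the 15 genes, 3 had low levels in both fractions and a higher level in chromatin. Amy1, an amylase with close relatives that can share its reads, averaged 44.9 ± 5.86 CPM in nucleoplasm and 3.94 ± 0.497 CPM in cytoplasm, and had 219, 203 and 210 CPM in the chromatin libraries. Ovgp1, an oviduct glycoprotein whose span overlaps Wdr77 on the same strand, averaged 11.3 ± 1.94 CPM in nucleoplasm and 1.16 ± 0.12 CPM in cytoplasm, with 56.5 to 59.2 CPM in chromatin. Slc39a2, a zinc transporter, averaged 10.1 ± 1.22 CPM and 1.14 ± 0.23 CPM, with 53.3 to 57.3 CPM in chromatin. Reads were counted over whole gene spans, introns included, so intronic reads enter these values. On the log2(TPM + 1) scale the differences were 3.49 for Amy1, 1.71 for Ovgp1 and 1.95 for Slc39a2.

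The length of the encoded protein, a property looked at after the values were seen, followed the ratio across the whole table. Of 418 coding genes whose longest protein exceeds 2000 residues, 276 (66.0%) were higher in nucleoplasm and 1 (0.239%) lower. Of 3066 genes with proteins of up to 250 residues, 69 (2.25%) were higher and 896 (29.2%) lower. Median log2 fold changes were -0.75 up to 250 residues, -0.23 at 251 to 500, 0.30 at 501 to 1000, 0.82 at 1001 to 2000 and 1.44 above 2000. Genes called higher had a median of 1006 residues, 21 exons and a span of 46775 bases, and those called lower 209 residues, 5 exons and 12672 bases, against 468 residues, 9 exons and 23637 bases over all 15494 coding genes with a protein. In TPM, which kallisto estimates from transcripts without introns, the medians of the outer classes were -0.65 and 1.14. For chromatin against cytoplasm in mCtx counts, a contrast that shares the cytoplasm libraries, they were -1.42 and 1.93. The trend is thus not particular to nucleoplasm. Length, exon number and span move together here, and their separate parts were not tested.

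**Figure D2:**
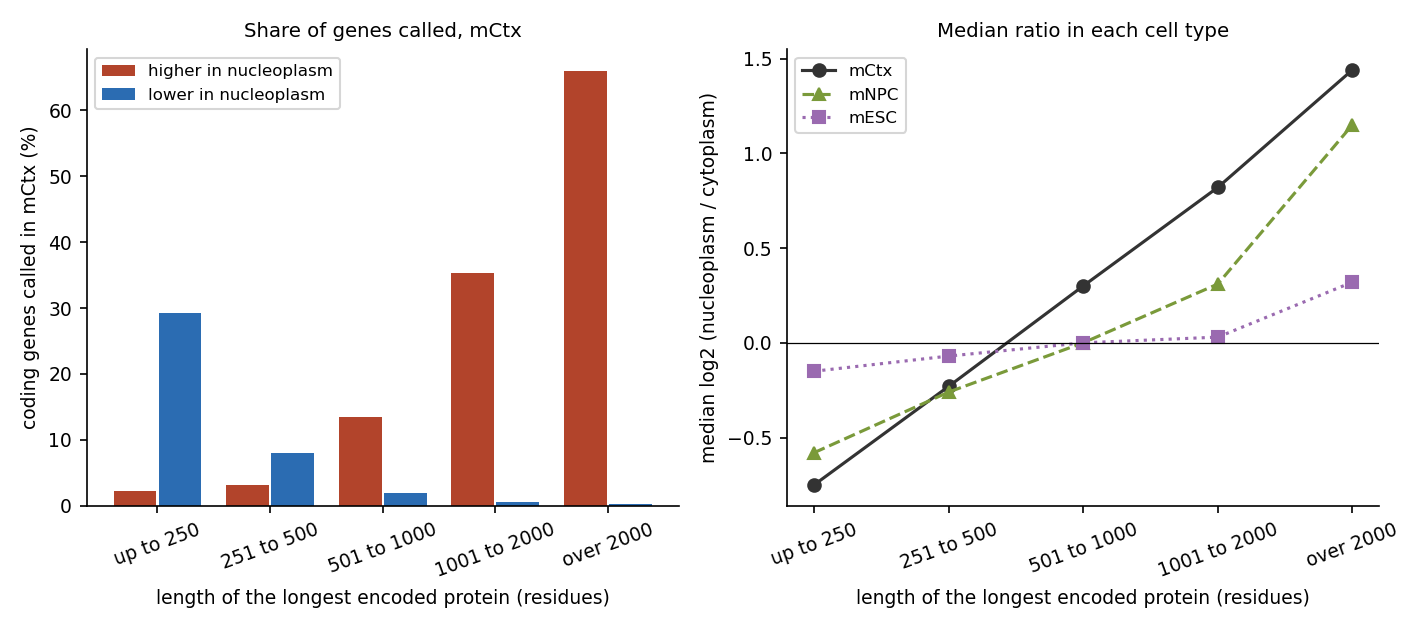
Left, percentage of coding genes called higher and lower in mCtx nucleoplasm by length class of the longest encoded protein, from 2.25% higher in the shortest class to 66.0% in the longest. Right, median log2 ratio of nucleoplasm over cytoplasm in each class for mCtx, mNPC and mESC, which runs from -0.75 to 1.44 in mCtx and from -0.15 to 0.32 in mESC.

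Among the lists of nuclear-encoded genes, secreted matrix proteins had the highest share called higher in nucleoplasm. Of 49 extracellular matrix genes, 36 were higher and none lower, with a median of 1.72. The median protein of the list has 1669 residues, and of all coding genes with 1001 to 2000 residues 35.4% were higher. The separate parts of length and secretion were not tested. Reln, the secreted guide of cortical layering, had 184, 145 and 212 CPM in nucleoplasm and 20.1, 19.5 and 35.1 CPM in cytoplasm (2.85 ± 0.34, edgeR adjusted p = 1.5e-07). Vcan (2.95), a large proteoglycan, Hspg2 (2.78), the basement membrane proteoglycan perlecan, Fn1 (2.39), fibronectin, and Lama5 (2.38), a laminin chain, were also higher. Ncan, the most abundant member and a brain proteoglycan, had 1.11. Hapln1, the lowest member at -1.04, stayed below 1 CPM and was not called. Col7a1, the highest at 3.52, averaged 1.53 CPM in nucleoplasm and 0.117 CPM in cytoplasm and had only 0.48 on the TPM scale. The list's count went down to 22 in TPM, with a median of 0.94. Fibroblast and mural markers, whose sums are given above, had 4 of 10 higher. That list shares Col1a1, Col1a2, Col3a1, Dcn, Lum and Postn with the matrix list, so it is no separate observation. The part of these cells in the matrix result was not tested.

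The mRNAs of such proteins open with a stretch that encodes a hydrophobic signal sequence, by which the ribosome is brought to the ER. It is shown for 4 abundant matrix genes, picked among those called higher that have such a stretch within the first 90 bases. They therefore cannot show whether the stretch goes with the ratio. Each is given as the first 90 bases of the coding sequence, 5′ to 3′ on the coding strand (GENCODE M21, mm10). Capitals mark the codons of the most hydrophobic window of 19 residues that starts within the first 50.
Ncan: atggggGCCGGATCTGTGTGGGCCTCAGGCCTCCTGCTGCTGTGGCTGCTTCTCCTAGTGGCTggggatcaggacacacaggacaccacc
Tnc: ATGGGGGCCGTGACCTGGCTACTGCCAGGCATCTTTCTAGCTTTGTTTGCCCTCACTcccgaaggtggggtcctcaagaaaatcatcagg
Agrn: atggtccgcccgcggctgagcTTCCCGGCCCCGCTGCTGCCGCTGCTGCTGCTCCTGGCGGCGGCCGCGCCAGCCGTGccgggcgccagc
Sparcl1: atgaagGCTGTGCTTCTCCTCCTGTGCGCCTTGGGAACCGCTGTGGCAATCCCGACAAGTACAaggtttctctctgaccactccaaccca
The genes lie on the - strand, Ncan at chr8:70093085-70120873, Tnc at chr4:63959785-64047015, Agrn at chr4:156165290-156197488 and Sparcl1 at chr5:104079111-104114088, and Tnc overlaps 8030451A03Rik on the opposite strand. The window starts at residue 3 in Ncan (neurocan), residue 1 in Tnc (tenascin C), residue 8 in Agrn (agrin) and residue 3 in Sparcl1 (SPARC-like 1). Their log2 fold changes were 1.11, 2.37, 2.04 and 1.62 in the same order.

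Adhesion, guidance and channel genes were called mostly higher. Of 67 neurexins, neuroligins and other synaptic adhesion genes, 31 were higher and none lower (median 0.97), and in 56 of them all 3 nucleoplasm libraries lay above the cytoplasm libraries. Clstn1, a calsyntenin, had 1614, 1579 and 1796 CPM in nucleoplasm and 463, 568 and 610 CPM in cytoplasm (1.6 ± 0.15, edgeR adjusted p = 4.2e-09). L1cam (2.34), an axonal adhesion molecule, and Ptprd (2.08), a receptor phosphatase of synapses, were higher. Of 59 axon guidance genes 19 were higher and none lower, with a median of 0.83. They included the receptors Plxna3 (2.08), Neo1 (1.64), Robo2 (1.47) and Dcc (1.32) and the ligands Slit1 (1.82) and Sema3e (1.72). The ephrin ligand Efnb2 had the lowest ratio at -0.69, with 208 ± 2.8 CPM in nucleoplasm and 335 ± 10.7 CPM in cytoplasm, and was not called.

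Of 34 glutamate receptor genes and their auxiliary subunits 8 were higher and 1 lower, with a median of 0.54. Gria2, the AMPA receptor subunit that limits calcium entry, averaged 694 ± 47.3 CPM in nucleoplasm and 163 ± 20.6 CPM in cytoplasm (2.09 ± 0.16, edgeR adjusted p = 3e-10). Gria3 had 2.32 and the NMDA receptor subunit Grin1 had 2.04. Cnih2, a small auxiliary subunit of AMPA receptors, was the lower member, with 154 ± 21.8 CPM in nucleoplasm and 399 ± 32.7 CPM in cytoplasm (-1.37). Among 51 voltage-gated channel genes 13 were higher and 2 lower (median 0.54). The higher ones were pore-forming subunits of sodium and calcium channels, such as Scn1a (2.22), Scn2a (1.20) and Cacna1a (1.35), calcium channel alpha2delta subunits such as Cacna2d3 (2.08), and the potassium channel gene Kcnh7 (1.57). The lower ones were the potassium channel genes Kcna3 (-1.57) and Kcna2 (-1.19), and 1 was left without mCtx cytoplasm 3.

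Among GABA and glycine receptor genes 1 of 17 was higher and 2 were lower, with a median of -0.32. The higher one, Gabre, had 0.131 CPM in nucleoplasm and 0.0168 CPM in cytoplasm and was not called without mCtx cytoplasm 1 or 3, or mCtx nucleoplasm 3 (1.59 to 4.38 over the 6 fits). Gabra4 (-1.24) and Gabra5 (-1.16), subunits of GABA-A receptors, were the lower ones. The GABA-B receptor genes Gabbr1 and Gabbr2 were not called. Gabbr1 averaged 586 ± 26.5 CPM in nucleoplasm and 613 ± 10.9 CPM in cytoplasm (-0.06, edgeR adjusted p = 0.784), and Gabbr2 257 ± 18.2 CPM and 286 ± 34.4 CPM (-0.15, edgeR adjusted p = 0.635).

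Of 48 plasma membrane carriers and ion pumps 12 were higher and none lower, with a median of 0.34. The potassium-chloride cotransporter Slc12a5 had 1.83. Atp1b1, a small subunit of the sodium pump, averaged 851 ± 52.0 CPM in nucleoplasm and 799 ± 14.2 CPM in cytoplasm (0.09) and was not called. ER chaperones and translocation genes had 6 higher and 6 lower of 44 (median 0.02), shares not far from the background. The higher ones are folding factors, Hsp90b1 (2.61), Hspa5 (1.83), Hyou1 (1.6), Pdia4, Pdia6 and Pdia3. Ostc (-1.74), Ssr3 (-1.70), Spcs3 (-1.42), Sec61b (-1.33) and Sec61g (-1.23), small subunits of the translocation, glycosylation and signal peptidase complexes, were lower, as was the cochaperone Dnajb9 (-1.67). Of 38 lysosomal genes 5 were higher, a share near the background, led by the cholesterol transporter Npc1 (1.88) and prosaposin, Psap (1.69). The 2 lower ones were Ids (-1.62) and Cd63 (-1.19), with 4 lower without mCtx nucleoplasm 1.

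In the presynaptic lists 9 of 40 soluble or lipid-anchored proteins were higher and 3 lower (median 0.43). The active zone scaffolds Pclo (2.35), Rims1 (1.10) and Bsn and the priming factors Unc13a (1.76) and Unc13b (1.67) were higher, and the small proteins Rab5a (-1.33), Dnajc5 (-1.3) and Cplx2 (-1.06) were lower. Membrane-spanning vesicle proteins had 1 of 33 higher, Sv2a (1.17), and 4 lower (median 0.03). In both presynaptic lists the share called lower is not far from the 9.57% over all genes. Vamp2, the vesicle SNARE, averaged 358 ± 28.7 CPM in nucleoplasm and 892 ± 40.3 CPM in cytoplasm (-1.32). Postsynaptic scaffolds had 6 of 40 higher, a share not far from the background, led by Ppp1r9a (1.43), and none lower (median 0.43). With 1 mCtx library left out 4 to 7 were higher, and 1 was lower in all of these fits but that without mCtx cytoplasm 3. Without mCtx nucleoplasm 3 the count was 4 higher. Among neuropeptides and granins, 6 of 31 were higher, among them the granin-like Vgf (1.43), Chgb and Scg2 and the processing enzymes Pcsk1, Pcsk2 and Cpe. The short precursors of somatostatin (Sst, -1.67), cortistatin (Cort, -1.63), neuropeptide Y (Npy, -1.37) and insulin-like growth factor 1 (Igf1, -2.07) were the 4 lower ones, a share not far from the background. Sst and Npy are also inhibitory neuron markers, a list with 6 of 16 lower and none higher.

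**Figure D3:**
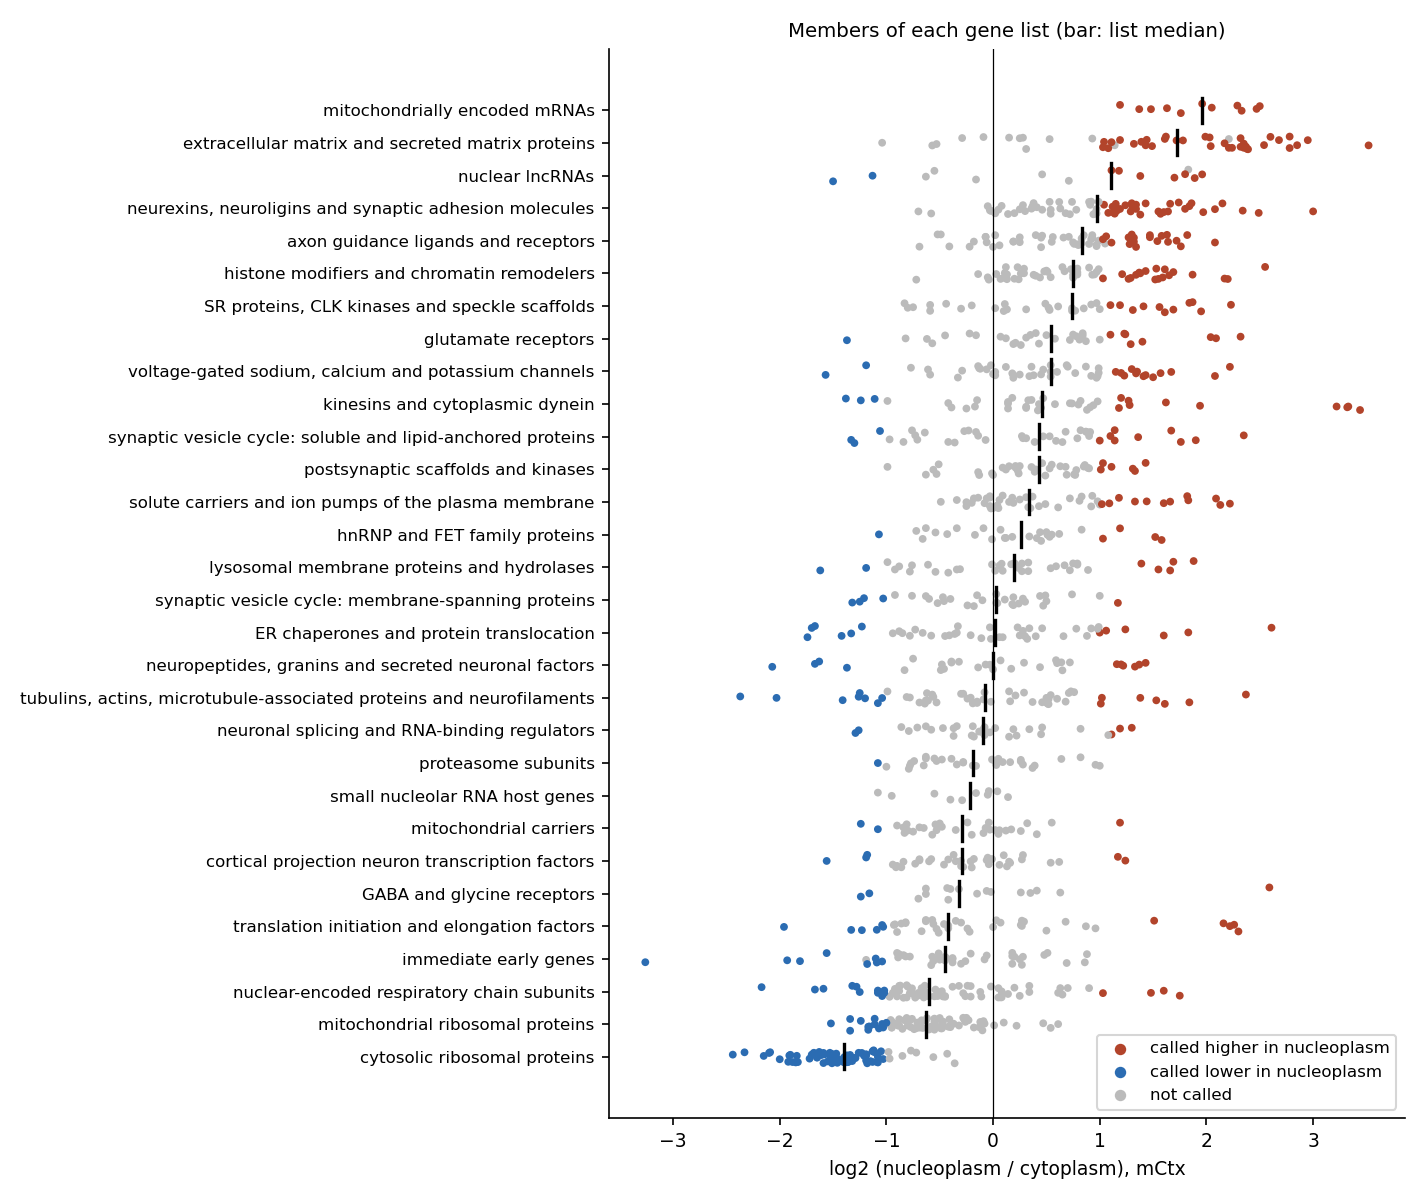
Log2 ratio of nucleoplasm over cytoplasm in mCtx for each tested member of 30 gene lists, ordered by list median (black bar) with the highest at the top and colours for genes called higher, called lower or not called. The matrix and adhesion lists lie to the right of 0 and the ribosomal protein list, with a median of -1.40, to the left.

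Transcripts of the mitochondrial genome, which are made and translated inside the organelle, took a larger share of counts in nucleoplasm. Their share was 6.62, 6.41 and 6.70% in nucleoplasm and 2.64, 2.44 and 2.46% in cytoplasm. The means were 6.58% ± 0.153 and 2.51% ± 0.112 (SD, n = 3 each), a difference of 4.06 percentage points with no overlap. An exact two-sided permutation test gave p = 0.100, the smallest that 3 against 3 libraries allow. In chromatin the share was 1.44% ± 0.150. All 11 mitochondrially encoded mRNAs tested were called higher, with a median of 1.96, but mt-Co2, mt-Co3, mt-Atp6 and mt-Atp8 had about 1 CPM or less. The share of mitochondrial material in the fractions was not tested.

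The abundant mitochondrial mRNAs moved by different amounts. For mt-Nd5, a complex I subunit, the values were 7765, 7178 and 8282 CPM in nucleoplasm and 1919, 1779 and 1894 CPM in cytoplasm (2.05 ± 0.23, edgeR adjusted p = 6.2e-08). For mt-Co1, a subunit of cytochrome c oxidase, they were 23921, 22518 and 25081 CPM in nucleoplasm and 10131, 10795 and 10453 CPM in cytoplasm (1.19 ± 0.22, edgeR adjusted p = 8.1e-05). The libraries of each fraction stayed close together in both genes. The ribosomal RNAs mt-Rnr2 and mt-Rnr1 had 1.87 and 1.41. Chromatin against cytoplasm, a contrast that shares the cytoplasm libraries, gave -0.55 for mt-Nd5 and -1.18 for mt-Co1.

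**Figure D4:**
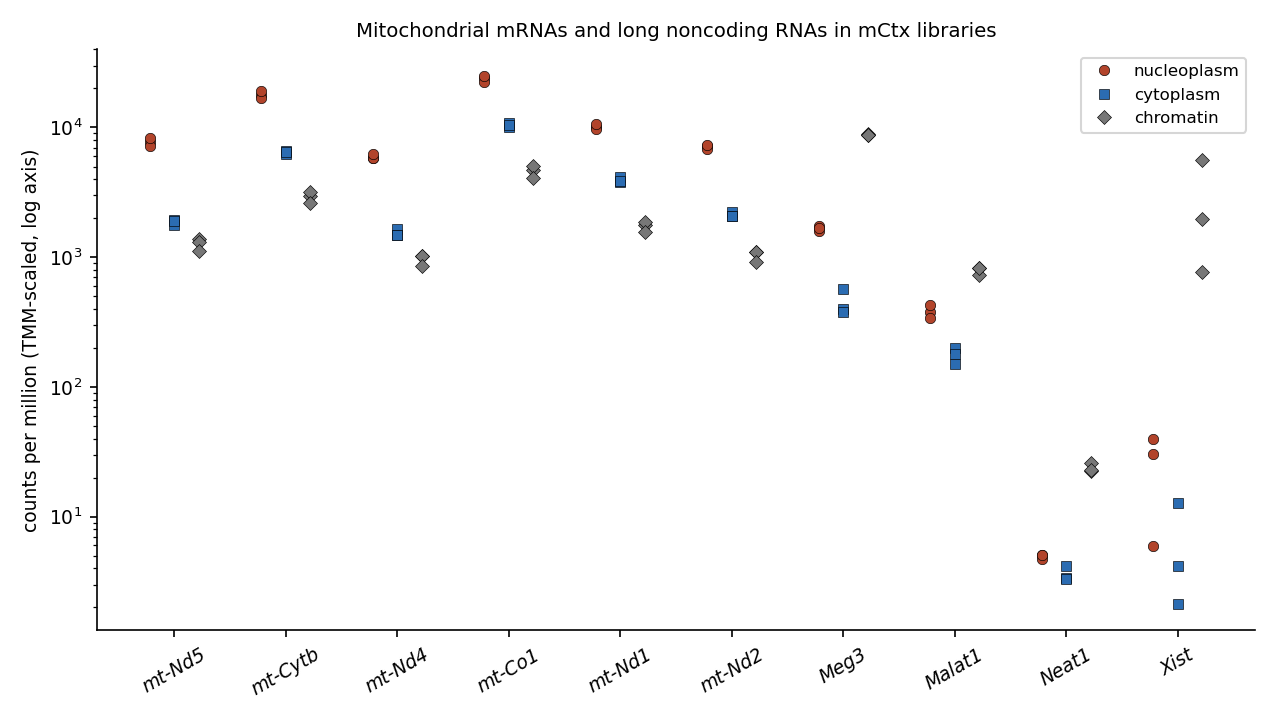
Levels in CPM (TMM-scaled, log axis) of 6 mitochondrial mRNAs and 4 long noncoding RNAs in the 3 nucleoplasm (circles), 3 cytoplasm (squares) and 3 chromatin (diamonds) mCtx libraries. The mitochondrial mRNAs are highest in nucleoplasm and lowest in chromatin, whereas Meg3, Malat1, Neat1 and Xist are highest in chromatin.

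Of 15 long noncoding RNAs listed here as nuclear and found in the count table, 7 were higher in nucleoplasm and 2 lower. Their median was 1.11 in counts and 0.28 in TPM, and a nuclear role was not checked for each. Meg3, an imprinted RNA, had 1592, 1731 and 1677 CPM in nucleoplasm and 400, 379 and 570 CPM in cytoplasm (1.89 ± 0.30, edgeR adjusted p = 1.2e-05), with no overlap. Malat1, of nuclear speckles (chr19:5795690-5802671, - strand), had 378, 339 and 425 CPM in nucleoplasm and 200, 150 and 179 CPM in cytoplasm (1.11 ± 0.21, edgeR adjusted p = 7e-05). Without mCtx cytoplasm 2 or mCtx nucleoplasm 3 its call was lost (0.97 to 1.21 over the 6 fits). Neat1, the paraspeckle RNA, averaged 4.94 ± 0.218 CPM in nucleoplasm and 3.62 ± 0.47 CPM in cytoplasm and was not called.

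Xist, the RNA that coats the inactive X chromosome, had 5.9, 30.5 and 39.6 CPM in nucleoplasm and 2.1, 4.2 and 12.8 CPM in cytoplasm, so the groups overlapped. It was called at 1.96 ± 0.64 (edgeR adjusted p = 0.0153), and the call was lost without mCtx nucleoplasm 2 or 3 or mCtx cytoplasm 1 or 2 (1.45 to 2.98). Its span overlaps that of Tsix on the opposite strand. The lower noncoding genes were Dlx6os1 (-1.50), which overlaps Dlx6 on the opposite strand, and Pantr1 (-1.13). In the TPM table, Snhg14, Mirg and Miat, not in the count table, had log2(TPM + 1) differences of 1.86, 1.18 and 1.04. The small nucleolar RNA hosts Snhg6 and Snhg8 had -1.37 and -1.67. Other RNAs listed as nuclear and found only there were not called, from -0.85 for Pvt1 to 0.54 for Rmst. The 10 host genes in the count table had log2 fold changes of -1.08 to 0.14.

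Several splicing genes are known for retained introns. Of 35 SR protein, CLK kinase and speckle genes 11 were higher and none lower (median 0.74), and 5 were lower with no minimum fold change. Clk1, a kinase of SR proteins, had 132, 134 and 115 CPM in nucleoplasm and 32.6, 21.5 and 27.2 CPM in cytoplasm (2.23 ± 0.21, edgeR adjusted p = 5e-09). Srrm2 and Son, the large scaffold proteins of speckles, had 1.87 and 1.61, and the splicing regulators Pnisr and Luc7l3 1.95 and 1.84. Srsf2 (-0.83) was the lowest and was not called. Of 28 hnRNP and related genes 4 were higher, among them Taf15 (1.58), Hnrnpm (1.19) and Hnrnpu (1.03), and 1 lower, Pcbp2 (-1.07). The share called higher is not far from the background.

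Of 34 neuronal splicing regulators 3 were higher and 2 lower (median -0.09). Ptbp1, the repressor of neuronal exons, averaged 68.4 ± 4.09 CPM in nucleoplasm and 108 ± 10.2 CPM in cytoplasm (-0.66), and its neuronal relative Ptbp2 193 ± 9.63 CPM and 170 ± 8.1 CPM (0.19), and neither was called. The span of Ptbp1 overlaps Plppr3 on the opposite strand. Histone modifiers and chromatin remodelers, a list with a median protein of 1713 residues, had 19 of 56 higher and none lower, with a median of 0.75. That is near all coding genes with 1001 to 2000 residues, of which 35.4% were higher, with a median of 0.82. Atrx (2.55), a remodeler, Setd2 (2.20), a histone methyltransferase, and Chd8 (2.17) led them. Smarca4, the catalytic subunit of the BAF complex, averaged 834 ± 55.4 CPM in nucleoplasm and 273 ± 43.5 CPM in cytoplasm (1.61 ± 0.25, edgeR adjusted p = 9.2e-06).

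On the cytoplasmic side, mRNAs of cytosolic ribosomal proteins moved as a block. Of 80 tested, 72 were lower in nucleoplasm and none higher, with a median of -1.40, and in all 80 the 3 nucleoplasm libraries lay below the 3 cytoplasm libraries. Rps12, of the small subunit (chr10:23785211-23787195, - strand), had 178, 187 and 201 CPM in nucleoplasm and 968, 1130 and 971 CPM in cytoplasm (-2.44 ± 0.16, edgeR adjusted p = 2.8e-11). In TPM its difference was -1.33. Rpsa, the most abundant, had 772, 813 and 940 CPM in nucleoplasm and 2594, 3005 and 2580 CPM in cytoplasm (-1.70 ± 0.15, edgeR adjusted p = 1.4e-09). Rpl3 had the smallest difference at -0.36. These genes have many processed pseudogenes, which can share reads with them, and of 450 pseudogenes of this class 122 were lower and 33 higher.

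Ribosomal protein mRNAs are known for a pyrimidine tract at their start, through which their translation follows growth signals. The 6 members with the lowest ratios among 59 found in the RefSeq start site table (GRCm38.p6) are shown over 15 bases before and 15 after the first listed start. Capitals mark a hexamer of C, 3 T and a pair of pyrimidines, that is CTTTTT or the variant CTTTTC or the variant CTTTCT or the variant CTTTCC, searched on the sense strand only with overlapping matches joined.
Rps12: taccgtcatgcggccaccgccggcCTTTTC
Rps27l: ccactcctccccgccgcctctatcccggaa
Rpl34: cgccttccctgacgtacttcctgtccggcg
Rps13: gagagcaaacgtcggtgagtggcgtcactt
Rps15a: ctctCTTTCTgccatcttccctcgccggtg
Rpl12: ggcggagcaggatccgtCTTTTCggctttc
These windows are at chr10:23787195-23787224 (- strand), chr9:66946071-66946100 (+), chr3:130730384-130730413 (-), chr7:116334176-116334205 (-), chr7:118116133-118116162 (-) and chr2:32961697-32961726 (+). A hexamer lay in 16 of the 59 windows (27.1%), in 472 of 12736 windows of genes tested (3.71%) and in 1194 of all 27025 (4.42%). Among genes called lower it lay in 4.94% of windows, or 4.03% with ribosomal proteins left out, and among genes called higher in 3.72%.

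Translation factors were called on both sides. Of 42, 5 were higher and 6 lower, with a median of -0.42. The higher ones were the initiation factor genes Eif4g3 (2.30), Eif3a (2.26), Eif4g1 (2.22), Eif5b (2.16) and Eif3c (1.51). Lower were Tpt1 (-1.96), Eef1b2 (-1.33), Eif1 (-1.23), Eif1ax (-1.09) and Eif3h (-1.04), and Eif4g2 (-1.03), a relative of Eif4g1 with a value at the minimum. These shares are near the background. The elongation factor Eef1a1 averaged 5627 ± 349 CPM in nucleoplasm, against 6657 ± 474 CPM in cytoplasm, and was not called (-0.24).

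Nuclear-encoded respiratory chain genes had 4 of 77 higher and 11 lower, beside 11.7% and 9.57% over all genes. Their median of -0.60 had the opposite sign from that of the mitochondrially encoded subunits of the same complexes. The median protein of the list has 143 residues. Of all coding genes with up to 250 residues 29.2% were lower, with a median of -0.75, so the list is no lower than genes of that size. Atp5e, a small subunit of ATP synthase, had 47.5, 45.4 and 43.1 CPM in nucleoplasm and 192, 235 and 185 CPM in cytoplasm (-2.17 ± 0.17, edgeR adjusted p = 2.2e-10). Sdha, the large flavoprotein of complex II, had 354, 329 and 356 CPM in nucleoplasm and 99.7, 107 and 103 CPM in cytoplasm (1.75 ± 0.12, edgeR adjusted p = 6.3e-11), while the small complex II subunits Sdhc and Sdhd had -1.28 and -1.04. Mitochondrial ribosomal proteins, with a median of 194 residues, had 13 of 76 lower and none higher. Their median of -0.63 and their share lower also did not exceed those of coding genes with up to 250 residues. Proteasome subunits had 1 of 33 lower, Sem1 (-1.08), or 2 with 1 mCtx library other than cytoplasm 2 left out. Mitochondrial carriers had 1 of 32 higher and 2 lower (1 without mCtx nucleoplasm 2).

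Among 44 immediate early genes none was higher and 8 were lower (median -0.45), with 5 lower without mCtx nucleoplasm 1 and 4 in TPM. The lowest were Atf3, a stress-induced transcription factor (-3.26), with 0.267 ± 0.261 CPM in nucleoplasm and 2.44 ± 0.389 CPM in cytoplasm, and Zfp36l1 (-1.93), an mRNA decay factor, and Btg2 (-1.81), an antiproliferative factor. Atf3 had -1.16 in TPM. Projection neuron transcription factors had 2 of 38 higher (1 without mCtx cytoplasm 2) and 3 lower, with Id2, an inhibitor of basic helix-loop-helix factors, at -1.56. Other genes among the 15 with the lowest ratios, by the same limits on level and overlap, were Pclaf (-2.46), a partner of the replication clamp whose span overlaps Trip4 on the opposite strand, the glycolipid carrier Gltp (-2.36), Mmgt1 (-2.26), of the ER membrane complex, and Sptssa (-2.10), a small subunit of serine palmitoyltransferase. Mki67 and Pclaf, which lead the 15 genes of either direction, encode proteins of 3177 and 110 residues. Whether length bears on their opposite directions was not tested.

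In the authors' TPM table, a separate quantification of the same libraries, most calls kept their direction. Of 1205 genes called higher with a mean of at least 5 TPM, 1202 were above 0 and 1012 were also called (limma-trend on log2(TPM + 1)). Of 1100 called lower, 1090 were below 0 and 912 were also called. Of 24419 genes tested in TPM, 6.38% were called higher and 5.36% lower. Small nucleolar RNA loci, which are shorter than the selected RNA, had 83 of 254 higher and 2 lower in counts, and 209 of them overlap a longer gene on the same strand. How reads in such overlaps were counted was not tested.

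The same ratio was then compared with those of progenitors and stem cells by an interaction contrast, in which no library is shared between the ratios. Against mNPC, 1150 genes were called with a higher ratio in mCtx (6.31% of genes tested) and 2421 with a lower one (13.3%). Against mESC the counts were 2247 (12.3%) and 4181 (22.9%). The count of 1150 was unstable. It was 613 with a filter of 1 CPM, 1875 with library totals alone and 2405 in TPM, and 645, 611, 602 and 603 without mCtx nucleoplasm 1, 2 or 3 or mCtx cytoplasm 2. Higher ratios thus made up 32.2% of the calls against mNPC, or 48.2% with library totals alone and 63.1% in TPM, and 35.0% of those against mESC, or 21.6% with library totals alone. Library totals alone moved the median shift of all genes from 0.041 to 0.22 against mNPC and from -0.276 to -0.576 against mESC.

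In genes with counts in every group the shifts were large on both sides. Ank2, an ankyrin that anchors membrane proteins to spectrin, averaged 1388 ± 45.9 CPM in nucleoplasm and 205 ± 39.2 CPM in cytoplasm of mCtx (2.76), against ratios of -0.16 in mNPC and -0.11 in mESC. Its shift was 2.92 ± 0.29 against mNPC (edgeR adjusted p = 1.7e-08). Hsp90ab1, a cytosolic chaperone, was higher in mCtx nucleoplasm (1.20) and had -1.19 in mNPC and -1.25 in mESC. Kif1a had 3.33 in mCtx, 3.16 in mNPC and -0.67 in mESC, so its shift was seen against mESC (4.0 ± 0.63, edgeR adjusted p = 7.8e-06) and not called against mNPC (0.17 ± 0.60). Cltc, the clathrin heavy chain, had 2.86 in mCtx, 1.02 in mNPC and -0.86 in mESC.

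The median ratio of mitochondrial mRNAs was 1.96 in mCtx, 5.26 in mNPC and 6.86 in mESC. The ratio of mt-Cytb was 1.48 in mCtx, 5.26 in mNPC and 6.98 in mESC, with shifts of -3.78 ± 0.32 against mNPC and -5.50 ± 0.34 against mESC in the edgeR fit. All 11 tested mitochondrial mRNAs were called with a lower ratio in mCtx than in mNPC, and 7 of 11 with a lower ratio than in mESC. In TPM 10 were called lower against mNPC and all 11 against mESC.

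Genes of the secretory pathway shifted in the same direction. Ratios of extracellular matrix genes had a median of 1.72 in mCtx, 3.75 in mNPC and 3.40 in mESC. Of 49 genes 32 were called with a lower ratio in mCtx than in mNPC, and 26 with a lower one than in mESC. For synaptic adhesion genes the medians were 0.97, 2.92 and 2.53, with 56 and 32 of 67 lower. For lysosomal genes they were 0.20, 2.19 and 2.87, with 37 and 36 of 38 lower, and for ER chaperones 0.02, 1.46 and 2.69, with 34 and all 44 of 44 lower. Axon guidance genes had 48 and 37 of 59 lower, and plasma membrane carriers 39 of 48 in either comparison. Set beside the 13.3% and 22.9% over all genes, these shares are high. Under RLE size factors and library totals the median shifts of these lists stayed below 0. In TPM the median shifts against mESC were 0.21 for adhesion, 0.23 for glutamate receptor and 0.09 for voltage-gated channel genes, the opposite sign from counts (-1.40, -1.09 and -1.23).

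Motor and cytoskeletal genes had more higher than lower calls. Kinesin and dynein genes had medians of 0.46 in mCtx, -0.20 in mNPC and -0.55 in mESC, with 9 and 18 of 40 higher in mCtx and 1 lower in each comparison. Cytoskeletal genes had 17 and 22 of 54 higher and 0 and 1 lower. Histone modifiers had 31 of 56 higher and 2 lower against mESC. Against mNPC 4 of 56 were higher, a share near the 6.31% over all genes, and the count was 1 without mESC replicate 1 and 17 in TPM. The median shifts of these lists stayed above 0 under RLE size factors, library totals and TPM. The ribosomal proteins had nearly equal medians in mCtx (-1.40) and mNPC (-1.43) and -0.66 in mESC. Against mESC 29 of 80 were called lower in mCtx, beside 22.9% over all genes. That count depended on the scaling, with 21 under RLE size factors, 51 with library totals alone and 35 in TPM.

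**Figure D5:**
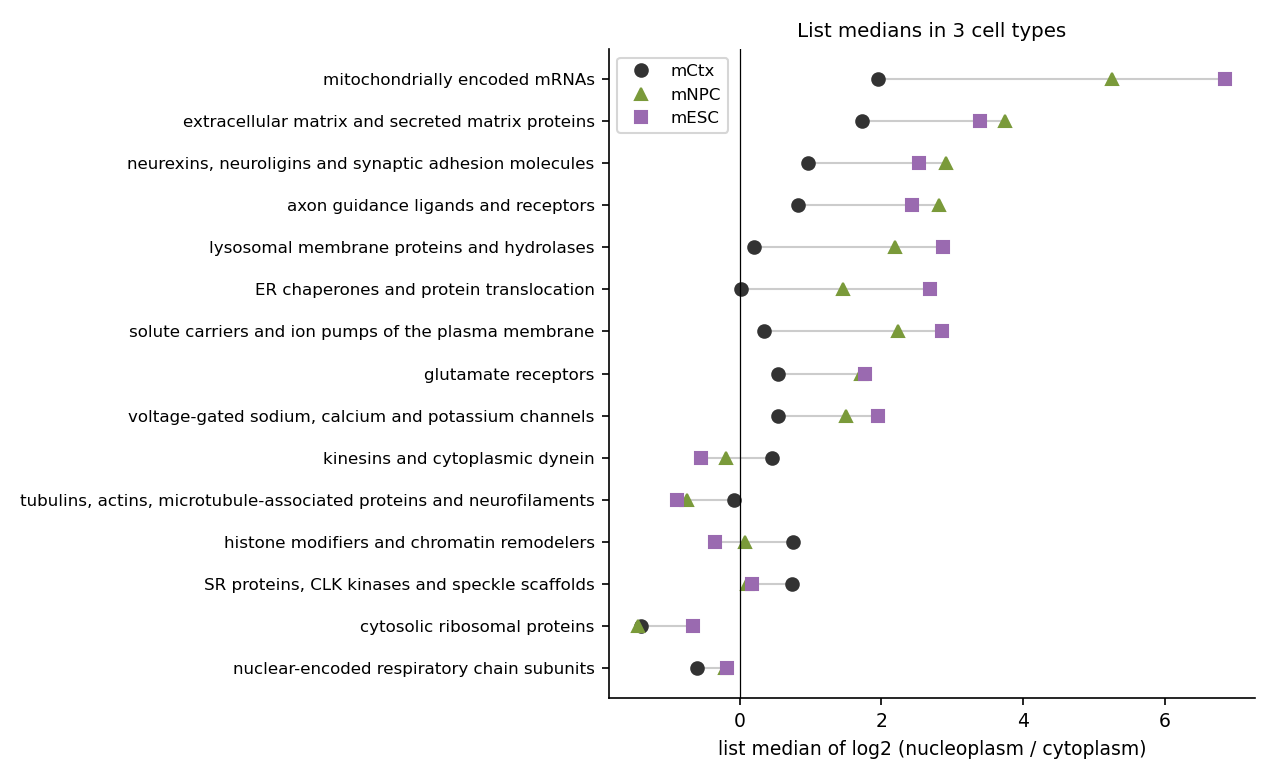
List medians of the log2 ratio of nucleoplasm over cytoplasm in mCtx (circles), mNPC (triangles) and mESC (squares) for 15 lists. Secretory and mitochondrial lists have their lowest median in mCtx, such as 1.72 against 3.75 and 3.40 for the matrix, while motor, cytoskeletal and chromatin lists have their highest there.

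The contrast between cell types differed with a feature of the protein. Coding genes with a hydrophobic stretch (a window of 19 residues with a mean Kyte-Doolittle hydropathy of at least 1.6) had a median ratio of 0.08 in mCtx, 0.67 in mNPC and 1.43 in mESC (5744 genes), and those without a stretch -0.07, -0.39 and -0.39 (9750 genes). With the stretch starting within the first 50 residues the medians were 0.0, 1.07 and 1.97 (2758 genes). In mCtx a stretch anywhere in the protein was found in 45.4% of genes called higher, 27.7% of those called lower and 37.1% of all, and one starting within the first 50 residues in 18.6%, 16.0% and 17.8%. With a hydropathy minimum of 2.0 a stretch anywhere was found in 24.7%, 19.6% and 23.3%. Within genes of up to 250 residues the medians with a stretch were -0.66 in mCtx, 0.0 in mNPC and 1.04 in mESC, and above 2000 residues 1.47, 1.31 and 0.56. In mCtx the length classes thus spanned a wider range than the classes with and without a stretch. The same held in mNPC, where the medians of the length classes ran from -0.58 to 1.15. In mESC the order was reversed. The median shift of genes without a stretch against mESC was 0.17, and -0.13 with library totals alone. The median shift of genes with a stretch was -0.77 against mNPC and -1.35 against mESC, and -0.14 and -0.57 in TPM.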

How the data were processed

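Polyadenylated RNA of 3 fractions of 3 mouse cell types was sequenced as 100 bp paired-end reads from TruSeq stranded libraries, per the labels' protocols, in 3 biological replicates each. The deposited read counts are whole numbers per gene over the whole gene span (37332 genes, introns inside). STAR, featureCounts, kallisto 0.43.0 and mm10 are named in the submitters' processing notes, while the sources used here do not give the strand setting. The second deposited table holds TPM values (53379 genes), relative transcript levels taken here as made by the authors with kallisto.

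One model of all 27 libraries (edgeR 4.0.16, R 4.3.3, a mean per group, filterByExpr, TMM) was tested by quasi-likelihood with Benjamini-Hochberg adjustment over 18226 genes. Differences between cell types are interaction contrasts of the same fit. SE is the log2 fold change over the root of F. TPM was tested with limma 3.58.1 on log2(TPM + 1) over 24419 genes with at least 1 TPM in 3 libraries. DESeq2 1.42.0 and other scalings, filters and left-out libraries served as alternatives. Library totals over all 27 ran from 10622897 to 24537526 counts.

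Named genes were the 15 with the largest change in each direction and the 5 in each direction of each interaction contrast (with a group mean of 10 CPM or more and, for the first, groups that do not overlap), the 3 most abundant and the extreme members of each list, and genes the study names. Other called members are named as examples, chosen after their values were seen. The 39 lists and all members were chosen with earlier results of these data known. Of the genes in the count table, 35533 matched a GENCODE M21 symbol and 15494 tested coding genes had a protein, translated from the longest coding sequence. Start sites are from RefSeq. Overlaps with another gene are named from 10.0% of the span. Columns of chromatin libraries were used as context, with their counts as deposited by the authors. Same-numbered libraries were not treated as pairs.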

Additional observations from a re-analysis of the deposited data

Results flagged for a closer look

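The test of the difference between cell types raised the values here, each a log2 ratio of nucleoplasm over cytoplasm in mCtx minus that in the other cell type. Against mNPC, 1150 genes were called with a higher and 2421 with a lower ratio in mCtx, and against mESC 2247 and 4181.

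Against mNPC the highest shifts were Calb2 (2.97), a calcium buffer with only 2 counts over the mNPC nucleoplasm libraries and a call that was lost in TPM (0.77) and without mCtx cytoplasm 2 or any 1 mCtx nucleoplasm library, Ank2 (2.92), the actin phosphatase Ssh3 (2.69), Hsp90ab1 (2.39), the glycolytic enzyme Pfkp (2.38) and the spectrin Sptbn4 (2.35). The lowest were Ret (-5.75), Spock1 (-5.10), Gabrb2 (-4.90) and Galnt14 (-4.56), each with 0 counts in mNPC cytoplasm, so that these fitted values are no bounds. They had 21, 8, 4 and 12 counts in mNPC nucleoplasm, in the same order. The mitochondrial mt-Nd6 had -4.92.

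Genes with more than 30 counts in every group were added after values were seen. Of these the lowest against mNPC were Ugt8a (-4.14), a lipid transferase, the protocadherin Pcdhb2 (-4.13), mt-Cytb (-3.78) and the glycoprotein gene Gpnmb (-3.78).

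Against mESC the highest shifts were Kif1a (4.0), Rab25 (3.81, with 8 counts in mCtx nucleoplasm and 1 in mCtx cytoplasm), Zfp990 (3.77, with 13 and 0), Cltc (3.72) and Ckap5 (3.44). Fatty acid synthase, Fasn (3.43), and the ribosome assembly factor Rrp12 (3.38) were added after values were seen. The lowest were Prrg4 (-6.50), Ceacam1 (-6.26), Srgn (-6.17), Cbln2 (-6.17) and Gpa33 (-6.15). Prrg4 and Gpa33 had 0 counts in mCtx nucleoplasm and 6 in mCtx cytoplasm, Ceacam1 had 0 and 2 and lost its call without mCtx cytoplasm 2 or mCtx nucleoplasm 3 (-6.86 to -3.6 with 1 mCtx library left out), Gpa33 lost it without mCtx cytoplasm 3, and Srgn 2 and 8, while Cbln2 had 21 in mESC nucleoplasm and 0 in mESC cytoplasm. With counts above 30 in every group, Spp1 (-5.68), mt-Co1 (-5.68), mt-Cytb (-5.50), mt-Nd5 (-5.43) and mt-Nd4 (-5.22) were lowest.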

How the results depend on the processing

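Over 236 named genes and 3988 values under alternatives, 3855 kept their direction and side of the threshold, 48 lost the call, 81 gained it and 4 reversed. The reversed ones were the shifts of Ret (0.46), Spock1 (0.07) and Galnt14 (0.75) against mNPC and of Zfp990 (-1.05) against mESC, all on the log2(TPM + 1) scale, and the cause was not tested. Of 1248 list counts, 1165 stayed within 1.5 times the count reported and 83 did not. The genes called in mCtx numbered 3542 to 3895 with 1 mCtx library left out, 3737 in DESeq2, 3828 with RLE size factors, 3959 with library totals alone and 2867 in TPM. With no minimum fold change they numbered 8523 (4198 higher, 4325 lower), and the shifts 5719 against mNPC (2732 higher) and 3613 higher against mESC. Higher shifts against mNPC numbered 613 with at least 1 CPM in 3 libraries, 1875 with library totals alone, 2405 in TPM (1408 lower), 602 to 1235 with 1 mCtx library left out and 687 without mESC replicate 1, a setting chosen after seeing the data. Higher shifts against mESC numbered 1412 with library totals alone. The difference in mitochondrial share was 3.91 percentage points over protein-coding genes and 17.1 in TPM. The same replicate numbers are shared by the fractions, but deviations of same-numbered libraries correlated at 0.129, 0.04 and 0.122, so the numbers were not taken as pairs. Each library correlated best with its own number, a hint from the data and not the design. With a replicate block 4073 genes were called (2237 higher, 1836 lower), with 3934 and 6786 shifts against mNPC and mESC. Genes under a few CPM, such as Gabre, mt-Co2 and Atf3, rest on few reads.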

Other observations

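MicroRNA loci, which are shorter than the selected RNA, had 35 of 176 higher in nucleoplasm and 16 lower, but took 0.176% ± 0.0118 of counts in nucleoplasm and 0.256% ± 0.0142 in cytoplasm (SD, n = 3 each). Of these loci 124 overlap a longer gene on the same strand. Long noncoding genes as a class had 85 of 1119 higher and 108 lower, with a median log2 fold change of -0.13. They took 0.711% ± 0.0193 of counts in nucleoplasm and 0.647% ± 0.0178 in cytoplasm (SD, n = 3 each). Over all genes 11.7% were higher and 9.57% lower, so the share called lower is near the background in both classes. The share called higher is above it for microRNA loci and below it for long noncoding genes. Rpl24, a ribosomal protein gene found only in the TPM table, had 429, 411 and 385 TPM in nucleoplasm and 1096, 1181 and 1010 TPM in cytoplasm. Rian, an imprinted long noncoding RNA found only there, had 804, 806 and 679 TPM in nucleoplasm and 632, 546 and 577 TPM in cytoplasm, without overlap, and was not called at a log2(TPM + 1) difference of 0.38 (limma adjusted p = 0.281).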
